A study of Homo sapiens with 18 samples.

Results

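CEACAM1, MYCT1 and TJP3 were 3 of the 25296 genes in a deposited table of estimated counts from U2OS cells, an established human osteosarcoma line. They were chosen by their estimated counts in these libraries, for the largest rises under cytarabine from a low untreated level, so those rises are given below as a description, with no test. Cytarabine (Ara-C) is a nucleoside drug that cells incorporate into DNA, where it stalls synthesis. The libraries came from 3 derived lines. The control line carried the empty vector MigR1 (EV), and the others overexpressed DNMT3A, either wild-type (WT) or with a point mutation (MUT). The mutation is named R882C in the series text and R882H in the sample labels. Each line was sampled without cytarabine and after 24 h with 10 µM, with 3 replicates per group plated as biological triplicates, 18 libraries in 6 groups. Cells without cytarabine are called untreated in the sample labels and a vehicle control in the series text. Whether a line was a clone or a pool is not given in the sources used here.

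CEACAM1 is a cell-surface adhesion molecule of the immunoglobulin superfamily. It binds other CEACAM1 molecules on neighbouring cells and, through inhibitory motifs in its cytoplasmic tail, recruits the phosphatases PTPN6 and PTPN11. It is best known from epithelium, activated lymphocytes and newly formed vessels. TJP3, also called ZO-3, is a scaffold of epithelial tight junctions that ties claudins and occludin to the cytoskeleton, beside its paralog TJP1. MYCT1 was described as a target of MYC and is expressed mainly in endothelium and in blood stem cells. DNMT3A, the gene introduced into the lines, is a de novo DNA methyltransferase, and promoters rich in CpG dinucleotides are among the sequences whose methylation is tied to silencing.

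In the deposited table CEACAM1 lies at chr19:42507304-42561235 on the minus strand, MYCT1 at chr6:152697895-152724568 on the plus strand and TJP3 at chr19:3708109-3750814 on the plus strand (hg38, per the submitters' processing notes), all protein-coding. All 3 genes had an entry among the RefSeq promoters of GRCh38.p14, which span 250 bases before to 50 bases after a start site, and TJP3 had a pair of entries. They are shown because each gene was chosen for a rise under cytarabine and because the lines differ in a DNA methyltransferase. CpG dinucleotides are in capitals.
CEACAM1, chr19:42528432-42528731, minus strand: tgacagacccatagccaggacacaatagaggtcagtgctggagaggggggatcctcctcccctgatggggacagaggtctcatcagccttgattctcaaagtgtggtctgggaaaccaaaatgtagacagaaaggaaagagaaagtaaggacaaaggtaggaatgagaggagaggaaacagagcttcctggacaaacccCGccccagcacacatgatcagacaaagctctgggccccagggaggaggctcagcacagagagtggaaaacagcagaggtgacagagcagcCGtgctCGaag
MYCT1, chr6:152697696-152697995, plus strand: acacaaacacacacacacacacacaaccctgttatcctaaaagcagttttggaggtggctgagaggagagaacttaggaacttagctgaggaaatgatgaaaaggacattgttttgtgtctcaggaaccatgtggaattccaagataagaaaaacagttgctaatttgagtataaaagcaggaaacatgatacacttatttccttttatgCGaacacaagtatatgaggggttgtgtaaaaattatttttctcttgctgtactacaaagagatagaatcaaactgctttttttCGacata
TJP3 first start site, chr19:3708134-3708433, plus strand: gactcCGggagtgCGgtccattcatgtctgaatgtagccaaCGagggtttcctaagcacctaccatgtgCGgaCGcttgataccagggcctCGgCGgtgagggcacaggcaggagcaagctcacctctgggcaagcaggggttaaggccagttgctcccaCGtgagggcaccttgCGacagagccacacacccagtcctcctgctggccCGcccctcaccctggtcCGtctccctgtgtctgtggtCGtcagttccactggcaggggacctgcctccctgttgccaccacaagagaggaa
TJP3 second start site, chr19:3721487-3721786, plus strand: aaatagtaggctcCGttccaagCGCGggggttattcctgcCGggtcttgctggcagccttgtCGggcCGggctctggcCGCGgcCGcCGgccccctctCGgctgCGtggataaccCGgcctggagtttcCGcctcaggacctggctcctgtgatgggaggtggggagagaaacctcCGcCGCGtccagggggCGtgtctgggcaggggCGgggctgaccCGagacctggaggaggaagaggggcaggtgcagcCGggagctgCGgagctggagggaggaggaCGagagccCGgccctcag
The windows of CEACAM1 and MYCT1 held 3 and 2 CpG, below the lower quartile of 4 over 35116 RefSeq promoters of that length. The TJP3 windows held 12 and 24, either side of the median of 14. CpG content therefore differed among the promoters of the 3 genes. Methylation was not measured in these files.

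A set of 6 short motifs was searched on both strands of these windows. TATAAA, the TATA box, was found in the MYCT1 window alone, with its first base at position -80 from the start site, and in 11.5% of all promoters. The interferon response element core was found in the CEACAM1 window alone, at position -116, and in 3.57% of all promoters. CACGTG, the E-box, lay at position -92 of the first TJP3 window and occurs in 7.26% of all promoters. A match to the p53 half-site lay at position -138 of that window, with matches in 6.63% of all promoters. TGANTCA (AP-1, in 7.71% of promoters) and CCGGAA (ETS, in 17.2%) were in none of the 4 windows, and no motif was shared by a pair of the genes.

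CEACAM1 was close to undetected in untreated cells and clearly present in every treated library. The estimated counts were 5, 11 and 14 in untreated EV, 8, 15 and 8 in untreated WT and 1, 3 and 5 in untreated MUT (replicates 1, 2 and 3). After cytarabine they were 195, 148 and 240 in EV, 462, 423 and 451 in WT and 190, 167 and 158 in MUT. Levels below are counts per M of the library after TMM scaling (CPM). The level went from 0.599 ± 0.287 (SD, n = 3) to 9.68 ± 0.527 in EV. The WT line went from 0.542 ± 0.219 to 22.0 ± 0.740 CPM, the highest treated level, and MUT from 0.175 ± 0.118 to 7.74 ± 0.764 CPM. The ratio of summed counts, scaled for library size, was 16.4 in EV (exact 95% interval 11.4 to 24.5), 40.8 in WT (28.6 to 60.3) and 45.8 in MUT (24.0 to 101). The interval for MUT is wide because the untreated cells gave 9 counts in all. Such intervals cover counting error only. The fitted log2 fold changes were 4.01 (SE 0.253), 5.33 (SE 0.245) and 5.46 (SE 0.315) in EV, WT and MUT.

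MYCT1 was low in untreated cells and had the highest treated level per length of the 3 genes in each line. Its untreated counts were 12, 6 and 12 in EV, 41, 21 and 25 in WT and 19, 16 and 27 in MUT. Treated counts were 328, 302 and 394 in EV, 565, 538 and 495 in WT and 361, 386 and 360 in MUT. EV cells held 0.596 ± 0.214 CPM untreated and 17.2 ± 1.45 CPM treated (SD, n = 3 each). WT cells held 1.499 ± 0.462 and 26.4 ± 2.57 CPM, and MUT cells 1.17 ± 0.326 and 16.7 ± 1.57 CPM. Untreated WT and MUT cells were above 1 CPM on average, so MYCT1 was low but not near-silent there. The ratio of summed counts was 28.8 in EV (exact 95% interval 20.05 to 42.9), 17.4 in WT (14.0 to 21.8) and 14.3 in MUT (11.1 to 18.8). The fitted log2 fold changes were 4.84 (SE 0.224), 4.12 (SE 0.187) and 3.83 (SE 0.198).

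TJP3 was below 1 CPM on average in each untreated line and between 7.86 and 10.4 CPM on average in the treated ones. Untreated counts were 9, 8 and 17 in EV, 15, 16 and 10 in WT and 14, 4 and 12 in MUT. Treated counts were 183, 137 and 184 in EV, 165, 121 and 194 in WT and 351, 135 and 211 in MUT. EV cells held 0.679 ± 0.318 CPM without and 8.46 ± 0.546 CPM with the drug, and 0.711 ± 0.150 and 7.86 ± 1.43 CPM in WT (SD, n = 3 each). MUT cells held 0.546 ± 0.255 and 10.4 ± 4.59 CPM, and the latter spread came from replicate 1, at 15.4 CPM against 6.46 and 9.19 CPM in replicates 2 and 3. The ratio of summed counts was 12.5 in EV (exact 95% interval 8.83 to 18.3), 11.1 in WT (8.04 to 15.6) and 18.6 in MUT (12.9 to 27.8). The fitted log2 fold changes were 3.63 (SE 0.348), 3.45 (SE 0.338) and 4.20 (SE 0.352).

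For each gene in each line, every treated library lay above every untreated one. Upward separation of this kind held for 30.6% of the 18226 tested genes in EV, 33.5% in WT and 32.1% in MUT, and for 20.8% in all 3 lines at once. The contrast chose the genes, so nothing is read from their own separation. All 3 passed the filter on low counts, which their treated libraries could have secured alone. RNA from whole cultures cannot tell apart more expressing cells and more RNA per cell. The differences between the lines' log2 effects are also given without a test. CEACAM1 differed by 1.32 for WT against EV and by 1.45 for MUT against EV, MYCT1 by -0.72 and -1.01, and TJP3 by -0.18 and 0.57.

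**Figure D1:**
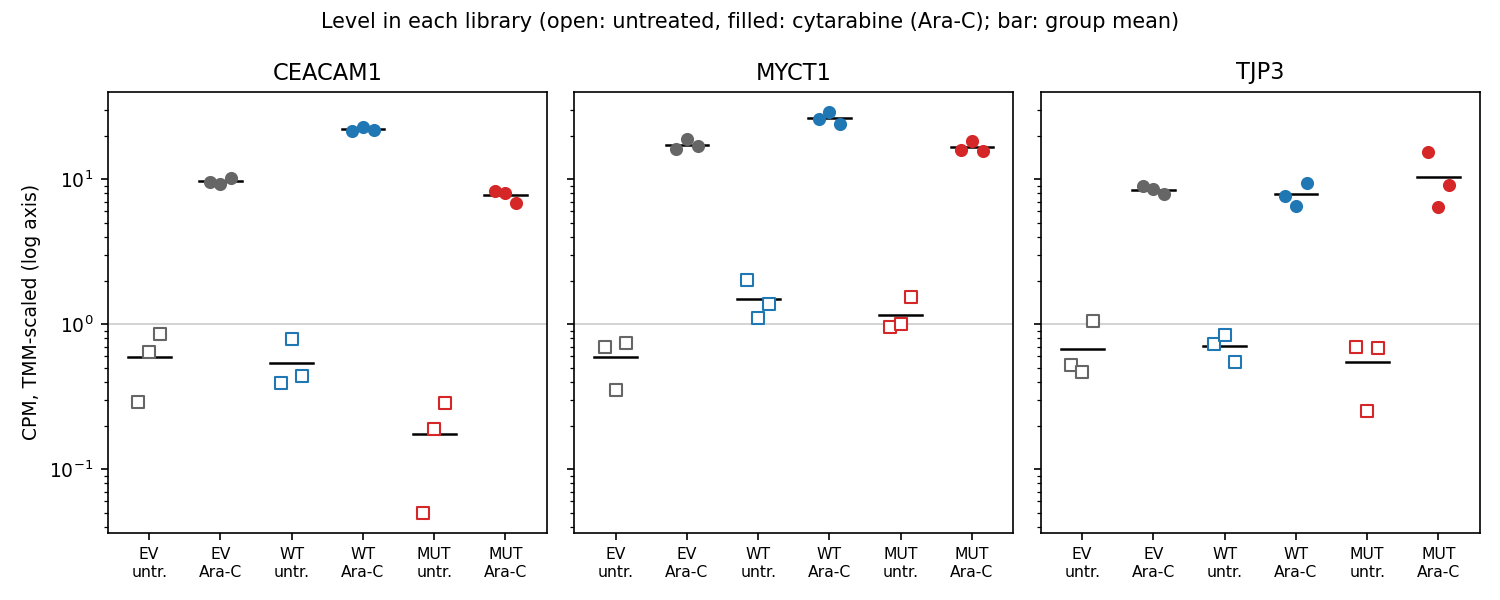
Level of CEACAM1, MYCT1 and TJP3 in each of the 18 libraries, in CPM on a log axis, with open squares for untreated cells, filled circles for cytarabine (Ara-C), black bars for group means and a grey line at 1 CPM. The treated libraries lie above all untreated ones, CEACAM1 and MYCT1 are highest in treated WT, and MUT replicate 1 stands above the other treated libraries for TJP3.

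Levels of different genes can be compared only per length. Over exonic lengths of 5.527, 3.03 and 3.964 kb in GENCODE v44, the treated level was highest for MYCT1 in every line, at 5.69 CPM per kb in EV, 8.71 in WT and 5.50 in MUT. CEACAM1 had 1.75, 3.99 and 1.401 CPM per kb and TJP3 2.13, 1.98 and 2.61. In WT the order was MYCT1, CEACAM1, TJP3, and in EV and MUT it was MYCT1, TJP3, CEACAM1. For EV the libraries of the lower pair did not overlap, with 1.67 to 1.86 CPM per kb for CEACAM1 and 1.99 to 2.26 for TJP3. The lengths count every annotated exon base of a gene, and the transcripts expressed here may be shorter. Lack of overlap does not cover that uncertainty. Before division by length the EV order of this pair was reversed, at 9.68 CPM for CEACAM1 and 8.46 CPM for TJP3. Untreated levels were 0.108, 0.098 and 0.032 CPM per kb for CEACAM1, 0.197, 0.495 and 0.385 for MYCT1 and 0.171, 0.179 and 0.138 for TJP3.

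Differences between lines within a treatment were not themselves the rule of choice, but they come from the same counts. Each gene had been picked for a large rise in single lines, which favours a high treated or low untreated level there. The adjusted p-values below are therefore not free of the choice. The differences were tested with the edgeR quasi-likelihood test and Benjamini-Hochberg adjustment over all 18226 genes. Under cytarabine, CEACAM1 was 1.18 higher in WT than in EV on the log2 scale (SE 0.174, adjusted p 0.000103, edgeR), where 16.5% of all genes passed. MUT stood below WT, with a log2 fold change of -1.51 (SE 0.176 and adjusted p 6.61e-06, edgeR), where 19.8% passed. All 3 treated WT libraries, at 21.4, 22.9 and 21.8 CPM, lay above the EV range of 9.24 to 10.3 CPM and the MUT range of 6.89 to 8.35 CPM. Such separation, in either direction, held for 37.1% of genes for WT against EV and for 45.5% for MUT against WT. MUT against EV differed by -0.32 (95% interval -0.67 to 0.03, adjusted p 0.262, edgeR), where 14.0% passed. The libraries of that pair did not overlap, as was so for 33.6% of genes in either direction.

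MYCT1 showed the same order of lines under cytarabine with smaller steps. It was 0.62 higher in WT than in EV (SE 0.144, adjusted p 0.00603, edgeR) and MUT stood below WT at -0.66 (SE 0.144 and adjusted p 0.00274, edgeR). The treated WT libraries held 26.2, 29.1 and 23.9 CPM, above 16.0 to 18.9 CPM in EV and 15.7 to 18.5 CPM in MUT. For MUT against EV the difference was -0.05 (95% interval -0.33 to 0.24, adjusted p 0.884, edgeR), and the libraries overlapped.

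In untreated cells the lines ordered differently. CEACAM1 was lower in MUT than in EV, at -1.78 on the log2 scale (SE 0.475 and adjusted p 0.0125, edgeR), where 19.9% of all genes passed. It was lower in MUT than in WT by -1.64 (SE 0.474, adjusted p 0.0184, edgeR), where 21.2% passed. These rest on 1 to 5 counts per MUT library. The first call was lost without untreated EV replicate 3 (adjusted p 0.0808) or untreated MUT replicate 1 (adjusted p 0.061), and the second without untreated MUT replicate 1 (adjusted p 0.0964) or untreated WT replicate 2 (adjusted p 0.127), in the same edgeR test. WT against EV was -0.14 (95% interval -0.86 to 0.58, adjusted p 0.869, edgeR), where 11.7% passed.

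Untreated MYCT1 was 1.33 higher in WT than in EV (SE 0.295, adjusted p 0.00489, edgeR), with 2.01, 1.11 and 1.37 CPM in WT against 0.701, 0.351 and 0.738 CPM in EV. It was 0.96 higher in MUT than in EV (SE 0.313, adjusted p 0.0365, edgeR). That second call was lost when any 1 of the 3 untreated EV libraries (adjusted p 0.0503 to 0.171, edgeR) or untreated MUT replicate 3 (adjusted p 0.145, edgeR) was left out. It was also lost when the other 4 groups were kept out of the fit (log2 fold change 0.95, adjusted p 0.193, edgeR). MUT against WT was -0.37 (95% interval -0.87 to 0.13, adjusted p 0.324, edgeR).

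TJP3 passed in none of the 6 comparisons of lines. Untreated, the differences were 0.08 for WT against EV (95% interval -0.81 to 0.97), -0.27 for MUT against EV (-1.21 to 0.67) and -0.35 for MUT against WT (-1.26 to 0.56), with adjusted p of 0.944, 0.743 and 0.639 in edgeR. Treated, they were -0.10 (-0.61 to 0.41), 0.30 (-0.21 to 0.80) and 0.40 (-0.10 to 0.90), with adjusted p of 0.836, 0.508 and 0.302 in edgeR. The treated MUT values rested in part on replicate 1. Without it MUT against EV was -0.11 and MUT against WT -0.0045. The intervals are wide and do not show that the lines were alike.

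**Figure D2:**
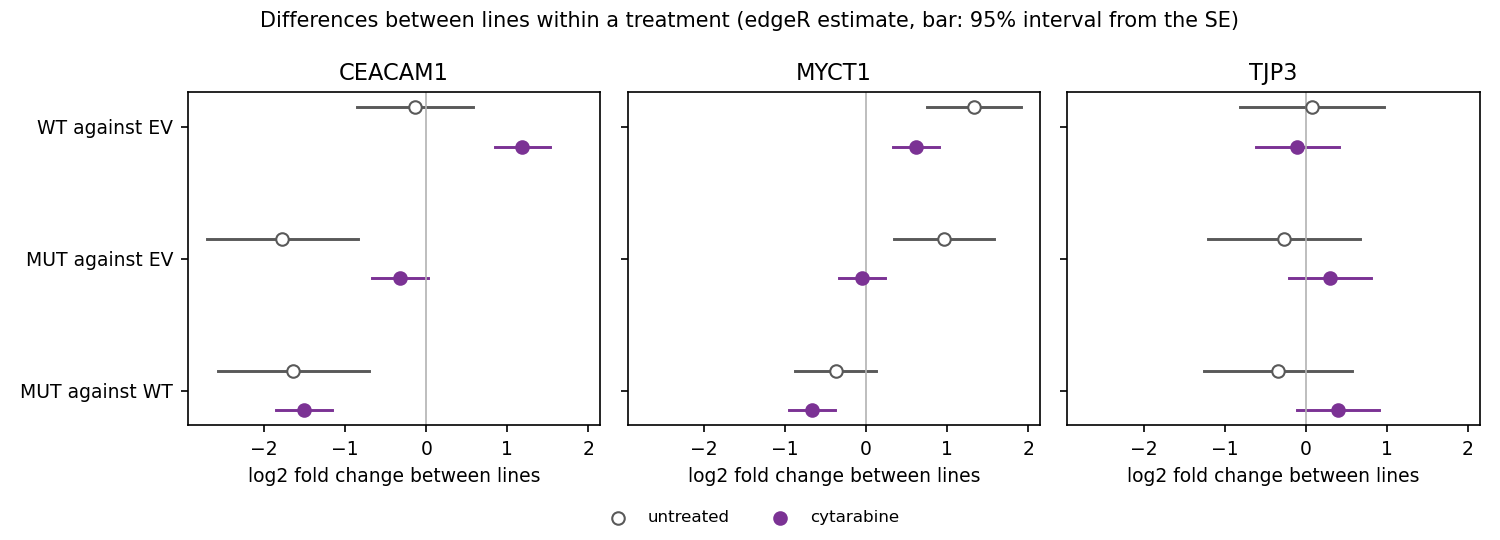
Log2 fold change between lines for CEACAM1, MYCT1 and TJP3, untreated (open) and under cytarabine (filled), with 95% intervals from the standard error. CEACAM1 and MYCT1 lie to the right of 0 for WT against EV and to the left for MUT against WT under cytarabine, and all TJP3 intervals include 0.

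Few genes started as low and ended as high. Of the tested genes, 2780 had an untreated mean under 1 CPM in every line. Their median log2 change was 0.81, 0.64 and 0.82 (EV, WT and MUT), and that of all tested genes was 0.05, 0.03 and 0.05. A low gene passes the filter more easily when it is high in a treated group, so these medians are given as a description. Of the 2780, 9 reached at least 5 CPM in every treated line, and 2 of the 9 were CEACAM1 and TJP3. Both had been chosen for such rises. MYCT1 fell outside because its untreated WT mean was 1.499 CPM. The other 7 were PADI4, PADI3, LAPTM5, KLHDC7A, ALPK3, the pseudogene HSD3BP5 and AC084759.3.

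With an untreated limit of 2 CPM, chosen after seeing the data, 27 of 4347 genes reached 5 CPM in every line, MYCT1 among them. A ratio of group means of at least 10 in every line was met by 5 of the 27, which were the 3 genes here together with PADI3 and PADI4, peptidylarginine deiminases. The 3 genes were chosen from these same counts for large rises from a low level. That they met these limits follows from the choice and is a description. The smallest ratio over the lines was 22.3 for PADI4, 16.2 for CEACAM1, 14.3 for MYCT1, 13.3 for PADI3 and 11.1 for TJP3. PADI4 went from 0.435, 0.376 and 0.751 to 12.2, 8.40 and 18.5 CPM in EV, WT and MUT. By fitted log2 fold change the 3 genes were not at the top. CEACAM1 ranked 58, 23 and 30 of the 18226 genes in EV, WT and MUT, MYCT1 31, 57 and 88, and TJP3 88, 107 and 61.

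**Figure D3:**
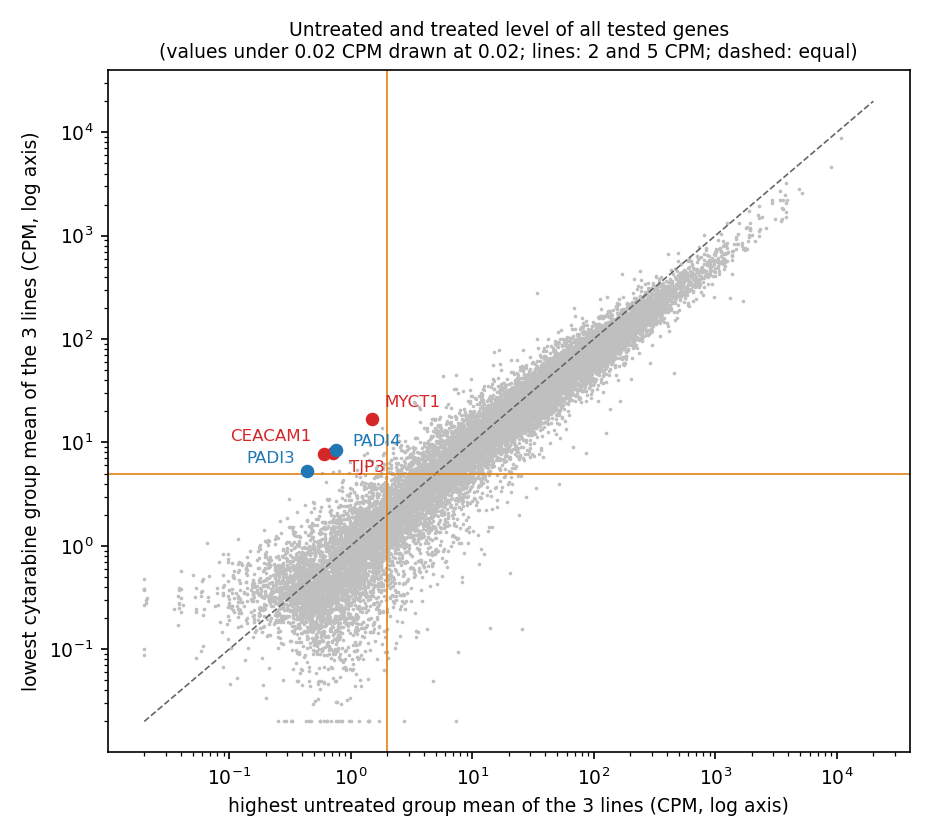
Highest untreated group mean of the 3 lines against the lowest cytarabine group mean, both in CPM on log axes, for all tested genes (grey), with CEACAM1, MYCT1 and TJP3 in red and PADI3 and PADI4 in blue. These 5 genes lie in the upper left corner bounded by the orange lines at 2 and 5 CPM, away from the dashed line of equal levels. The red genes were chosen for their rise, so their place is a description.

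Across all 18 libraries, the genes whose pattern came closest were found by the root mean square difference of log2 CPM after centring each gene on its mean. For CEACAM1 these were GDF15 (0.78), PDE6C (0.80), MYCT1 (0.86) and SLC16A12 (0.93). MYCT1 was closest to PDE6C (0.59), PADI3 (0.62), HSD3BP5 (0.62) and GDF15 (0.65), and TJP3 to CACNA1G (0.41), GDF15 (0.42), PADI3 (0.44) and SLC16A12 (0.49). Within the trio, CEACAM1 and MYCT1 differed by 0.86, MYCT1 and TJP3 by 0.70 and CEACAM1 and TJP3 by 0.95. The cytarabine step shapes every one of these patterns, and they share libraries. PDE6C was very low, at a mean log2 CPM of -1.18, so its closeness depends on the prior count of 2. Its fitted log2 fold changes were 4.54, 5.01 and 7.46 in EV, WT and MUT, against 4.84, 4.12 and 3.83 for MYCT1. GDF15, which encodes a stress-induced cytokine, started far higher, at 34.3, 24.6 and 24.3 CPM in untreated EV, WT and MUT, and reached 279.6, 457 and 362 CPM after cytarabine.

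The tested paralogs named here, TJP1 and CEACAM19, showed no such rise. TJP1 fell in all 3 lines, by log2 fold changes of -0.55, -0.42 and -0.29 in EV, WT and MUT, from 199, 195 and 180 CPM to 137, 146 and 147 CPM, and was called in each (edgeR, adjusted p under 0.05), where 22.9%, 22.7% and 25.9% of all genes were called lower. Of 11 other CEACAM genes, 3 were in the table and 1 was tested. CEACAM19 stood at 8.34, 8.34 and 7.97 CPM untreated and at 7.33, 7.95 and 8.20 CPM treated, called in no line. CEACAM6 held 0 to 9 counts and CEACAM21 0 to 7 counts per library, too few to be tested. Summed over replicates, CEACAM21 had 0, 1 and 4 counts untreated and 12, 11 and 14 treated in EV, WT and MUT. CEACAM6 had 0 in each untreated line and 2, 0 and 14 treated.

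Reads of similar sequence could be split between CEACAM genes. Of the 5723 stretches of 50 bases in CEACAM1 transcripts, 4.28% also occurred in another gene, 1.503% in CEACAM3 and 0.612% in CEACAM6. LIPE-AS1, an antisense gene that spans CEACAM1, shares 185 exonic bases with it, 3.35% of its exonic length, and the sources used here do not say if counting was by strand. LIPE-AS1 stood at 1.23, 1.48 and 0.704 CPM untreated and 1.42, 1.83 and 1.44 CPM treated, well below treated CEACAM1. MYCT1 shared no such stretch with another gene, and TJP3 shared 0.346%.

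Other tight junction genes moved in both directions. Of 49 listed genes 31 were tested. Those called higher numbered 13 in EV, 13 in WT and 16 in MUT, and those called lower 5, 5 and 2, where 26.1%, 26.3% and 30.4% of all tested genes were called higher and 22.9%, 22.7% and 25.9% lower. The lower count in WT was 3 without treated replicate 1 or 3 or untreated replicate 2 or 3, and that in MUT was 5 without untreated replicate 3. The list's median log2 fold change was 0.23, 0.26 and 0.35. In all 3 lines 11 were higher and 2 lower, where 18.9% and 16.4% of all genes were. PARD6G, a polarity adaptor, rose by 0.98, 1.197 and 1.10, PATJ, a scaffold of the Crumbs polarity complex, by 0.84, 0.96 and 0.93, and the adhesion molecule JAM2 by 0.68, 0.66 and 0.93. The claudin CLDN6 rose by 1.48, 1.13 and 1.52 but stayed at 0.902, 0.774 and 1.15 CPM after treatment.

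U2OS is of mesenchymal origin. Of 10 tested mesenchymal genes, 2 were higher and 2 lower in all lines, where 18.9% and 16.4% of all genes were. The abundant filament gene VIM fell by log2 fold changes of -0.90, -0.86 and -0.97, and CDH2 by -0.60, -0.63 and -0.46. COL1A2 rose by 2.20, 2.06 and 1.88 and THY1 by 0.54, 0.71 and 0.72. Because of the origin of U2OS, epithelial markers were read beside TJP3. Of 26 listed, 18 were tested, 9, 10 and 12 were higher and 2 in each line lower, and 8 were higher in all lines, beside the 26.1%, 26.3% and 30.4% of all genes higher in each line and the 18.9% higher in all. Of all genes, 22.9%, 22.7% and 25.9% were lower in EV, WT and MUT. KRT18 (-0.44, -0.24 and -0.48) and AP1M2 (-0.49, -0.28 and -0.69) were lower in all lines, as were 16.4% of all genes. The lower count in WT was 0 or 1 when any WT library was left out. The list's median was 0.87, 0.89 and 1.21. GRHL3, a transcription factor of surface epithelium, went from 0.796, 0.156 and 0.430 CPM to 5.71, 3.49 and 5.61 CPM. The protease PRSS8 rose by 2.64, 2.38 and 3.68, MAL2, an apical transport protein, by 1.76, 1.49 and 1.87, and the adhesion gene CDH1 by 1.15, 1.55 and 1.67. EPCAM, a defining marker, stood at 3.01, 2.13 and 3.23 CPM untreated and 3.64, 2.64 and 3.81 treated, called in no line. The summed level of the list, mostly KRT8 and KRT18, was 612 to 1122 CPM over untreated and 595 to 920 CPM over treated libraries. The part of these genes in the TJP3 values was not tested.

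**Figure D4:**
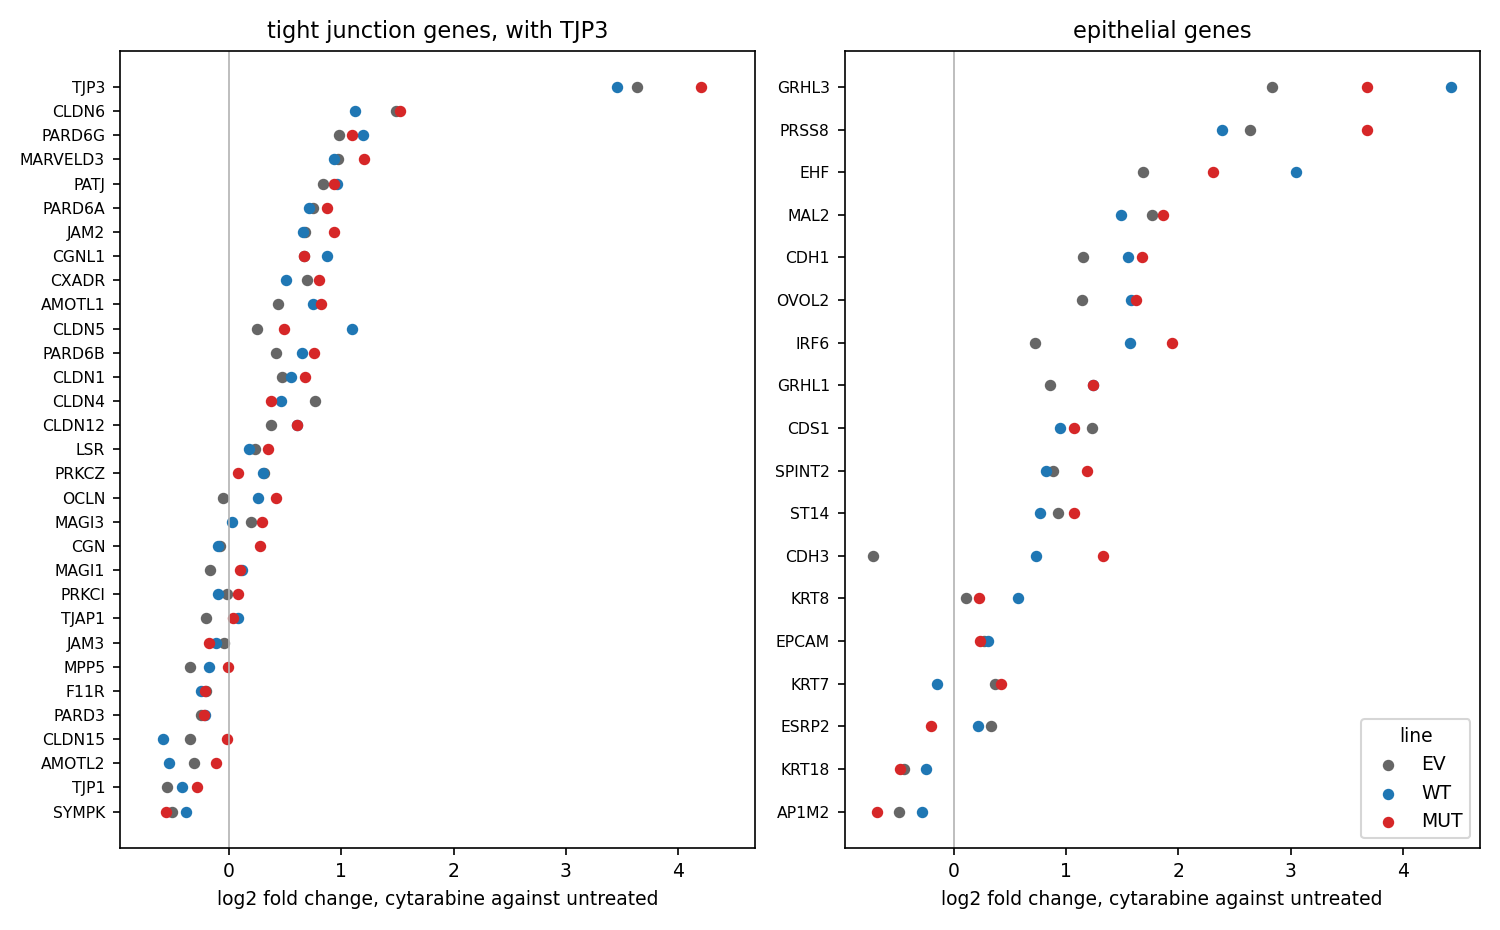
Log2 fold change under cytarabine in EV, WT and MUT for tested tight junction genes, apart from 1 not reported here, with TJP3 (left) and tested epithelial genes (right), ordered by the mean over the lines. TJP3 was chosen for its rise, the other junction genes run from about -0.5 to 1.5, and GRHL3 and PRSS8 lead the epithelial genes.

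Endothelial markers were read beside MYCT1 and CEACAM1. Of 21 listed, 15 were tested, 4, 7 and 5 were higher and 1 in each line lower, and 3 were higher in all lines. The shares higher were near those of all genes in EV, MUT and all lines together (26.1%, 30.4% and 18.9%). In WT the share higher was above the 26.3% of all genes. Higher in all lines were CD34, a surface marker of vessels and blood progenitors (log2 fold changes 2.11, 1.46 and 2.54), VWF, a clotting factor carrier (1.70, 1.73 and 1.62), and the receptor TEK (0.98, 1.02 and 1.62). CDH5, the cadherin of endothelial junctions, went from 1.66, 0.476 and 2.70 to 2.52, 1.21 and 5.55 CPM, log2 fold changes of 0.59, 1.35 and 1.04 that were called in WT and MUT (adjusted p 0.00101 and 0.000552, edgeR) and not in EV (0.051). Other defining markers, KDR, PECAM1, FLI1 and ESAM, stayed below 0.3 CPM in every group mean. These 5 were picked from the list after their values were seen. Some other genes of the list had higher levels, with group means of 7.11 to 8.68 CPM for ERG and 9.92 to 15.9 CPM for SOX17. The gene called lower was ROBO4 in EV and MUT (log2 fold changes -0.76 and -0.42) and SOX7 in WT (-1.20). That 1 of 15 lay below the 22.9%, 22.7% and 25.9% of all genes lower in EV, WT and MUT. The list summed to 92.3 to 123 CPM untreated and 112 to 137 CPM treated, mostly EGFL7. Leukocyte markers, with 6 of 20 tested, held 2, 3 and 3 genes higher in EV, WT and MUT and 1, 0 and 0 lower. Of all genes, 26.1%, 26.3% and 30.4% were higher and 22.9%, 22.7% and 25.9% lower. In all lines 2 were higher, where 18.9% of all genes were. The gene lower in EV was S100A9, from 0.337 to 0.049 CPM (log2 fold change -2.61, adjusted p 0.00938, edgeR). LAPTM5, a lysosomal membrane protein of blood cells, went from 0.561, 0.248 and 0.586 to 5.05, 5.28 and 7.51 CPM, and CORO1A rose by 1.77, 1.60 and 1.49. PTPRC stood at 0.476 to 1.06 CPM in the group means, and the list's sum went from 6.98 to 13.2 CPM untreated to 19.9 to 36.3 CPM treated. Their part in the CEACAM1 and MYCT1 values was not tested.

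Of the known partners of CEACAM1, 9 of 10 were tested, 1 was higher and 2 were lower in all 3 lines, near the 18.9% and 16.4% of all genes. INSR, the insulin receptor, rose by 0.63, 0.83 and 0.78, and FLNA, an actin crosslinker that binds the CEACAM1 tail, fell by log2 fold changes of -0.65, -0.68 and -0.62. The phosphatase PTPN11 was the other gene lower in all lines, and PTPN6 was below 0.4 CPM. For MYCT1, the 13 genes of the MYC network gave 2 higher and 3 lower in all lines, again near those shares of all genes. MYC itself fell from 267, 272 and 238 CPM to 125, 124 and 118 CPM, log2 fold changes of -1.10, -1.13 and -1.01. MAX, its dimer partner, changed by -0.35, -0.33 and -0.42, and MXD1, a MAX-binding repressor, rose by 0.37, 0.78 and 0.67. The other gene higher in all lines was MLXIPL (1.59, 2.97 and 3.25), from 0.217, 0.123 and 0.073 to 0.658, 0.997 and 0.766 CPM. The other lower gene was MLXIP (-0.48, -0.42 and -0.43).

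The genes next to each member were followed within 250 kb. Around MYCT1, VIP, which encodes a secreted neuropeptide and starts 26.2 kb downstream, rose by 2.20, 2.23 and 1.69 to 1.48, 3.21 and 2.25 CPM. SYNE1, a nuclear envelope protein, changed by 0.25, 0.18 and 0.51 and was called in MUT. Its effect in MUT differed by 0.26 from EV (adjusted p 0.425) and by 0.33 from WT (adjusted p 0.305, edgeR), neither called. FBXO5, an inhibitor of the anaphase-promoting complex, fell in all lines by log2 fold changes of -0.48, -0.50 and -0.41. Around CEACAM1, 11 of 12 genes were tested, and PSG3 (2.22, 1.48 and 2.95) was among those higher in all lines, from at most 0.453 to at most 1.61 CPM. The pregnancy-specific glycoprotein genes of that cluster have near-identical copies, so their counts are uncertain.

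Around TJP3, 16 of 19 genes were tested. The thromboxane receptor gene TBXA2R (0.99, 1.18 and 1.30) and the kinase gene MATK (0.94, 1.05 and 0.61) were higher in all lines, and NFIC, DOHH, MFSD12, CACTIN, MRPL54 and EEF2 were lower, where 18.9% and 16.4% of all genes were. PIP5K1C, just before TJP3, changed by 0.15, 0.21 and 0.23. In untreated cells 8 of these 16 genes were higher in MUT than in EV and none lower, with a median difference of 0.35, where 9.88% of all genes were higher. In MUT against WT 7 were higher, where 11.7% of all genes were. TJP3 lay within that stretch with differences of -0.27 and -0.35, neither called, and its wide intervals include the neighbours' medians.

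**Figure D5:**
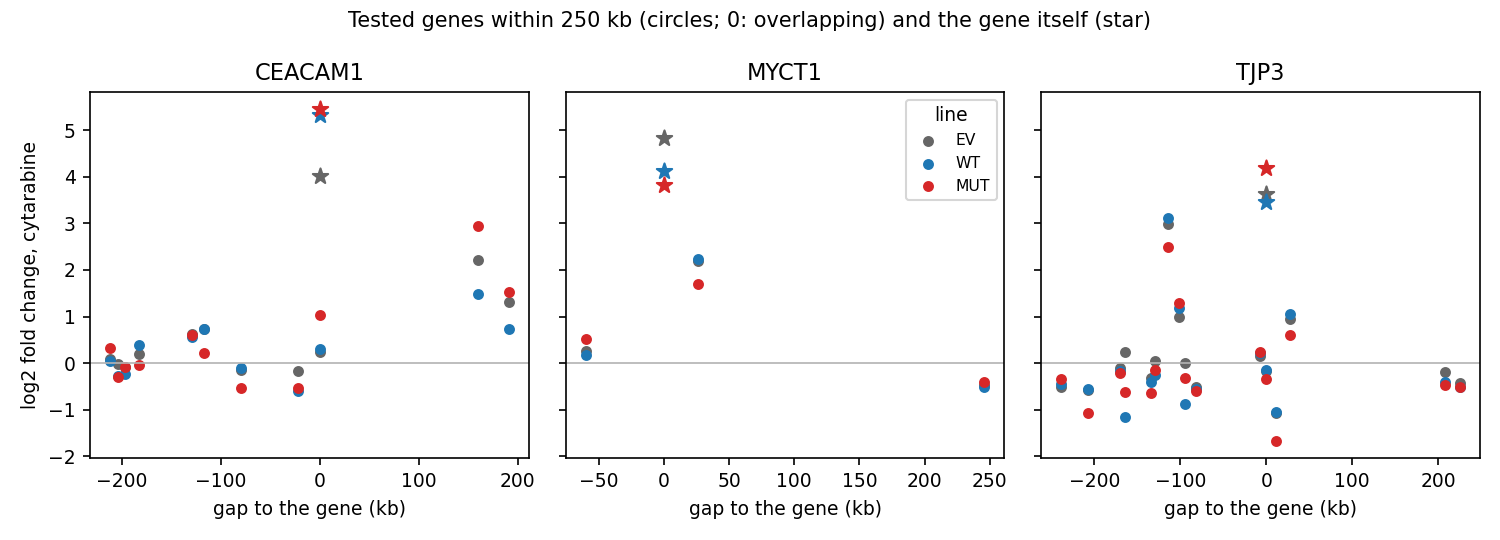
Log2 fold change under cytarabine in EV, WT and MUT for tested genes within 250 kb of CEACAM1, MYCT1 and TJP3 (circles, by gap in kb, 0 for an overlapping gene) and for the gene itself (stars). The starred genes were chosen for their rise, so that their height is a description, and the highest neighbours are PSG3, VIP and GIPC3. GIPC3 had no count in untreated WT, so its plotted WT value depends on the prior count of the fit.

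Libraries held 15.4 to 21.9 M estimated counts. DNMT3A checks which lines overexpress it, while counts per gene do not tell its alleles apart. It stood at 26.9 ± 0.662 CPM in untreated EV, 133 ± 5.17 in WT and 456 ± 185 in MUT (SD, n = 3 each). After cytarabine it stood at 47.4 ± 2.08, 176 ± 8.68 and 524 ± 8.71 CPM. MUT and WT thus differed in DNMT3A level as well as in the labelled allele. The 3 untreated MUT libraries stood furthest apart, at 21.2 to 46.8 chi-square units per degree of freedom between pairs against 2.45 to 15.2 in the other groups, and the untreated MUT comparisons above rest on them.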

How the data were processed

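RNA of U2OS cells was sequenced in 18 libraries, grouped and numbered from the sample titles. The submitters' processing notes name CASAVA, STAR 2.6.1d and hg38, and the counting tool and its handling of strand are not given in the sources used here. The authors deposited estimated counts per gene, not normalized, of which 70.9% were whole. They also deposited a normalized signal for 19591 genes, equal to 1 plus a library factor times the estimated count (largest relative deviation 8.17e-06). It served only as an alternative scaling. Symbols were used as the table gives them, with 2 rows of repeated symbols, and no column of another sample was present.

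The estimated counts were rounded to whole values before fitting in edgeR 4.0.16 (R 4.3.3) with TMM factors, the filterByExpr filter (18226 genes left), 1 coefficient per group and the quasi-likelihood F test over all genes, with a Benjamini-Hochberg threshold of 0.05. Standard errors are the absolute log2 fold change over the square root of F. CPM used TMM-scaled totals, and log2 CPM a prior count of 2. The scripts were tested on simulated data.

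The members, lists and rules were chosen with earlier results of these data known. Named genes were the members, DNMT3A, tested paralogs, genes within 250 kb, the 4 closest patterns per member, up to 4 genes per list with the largest change called and not overlapping in all lines, and genes ranked next to a member. Others, such as PTPN11, EPCAM, KDR, KRT8 and KLHDC7A, were named after their values were seen. Lists held tight junction, epithelial, endothelial, leukocyte, mesenchymal, CEACAM, CEACAM1 partner and MYC network genes. Of 12 mesenchymal markers 10 were tested, and their counts are given beside the epithelial list. Replicates all differed by more than sampling noise and were kept apart. Alternatives were other scalings, filters, DESeq2 1.42.0, fits of only the groups compared, a replicate block and leaving out each library. Values of 2 of the genes that the rule names are not reported here.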

Additional observations from a re-analysis of the deposited data

Results flagged for a closer look

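GDF15, one of the genes closest in pattern to all 3 members, had a response to cytarabine that differed between EV and WT by a test of the difference itself. Its log2 fold change was 3.03 (SE 0.136) in EV and 4.21 (SE 0.143) in WT, a difference of 1.19 (SE 0.184, adjusted p 0.00538, edgeR interaction contrast with Benjamini-Hochberg adjustment). In MUT it was 3.89 (SE 0.142). That differed from EV by 0.86 (adjusted p 0.055) and from WT by -0.33 (adjusted p 0.417, edgeR interaction contrasts), neither called. GDF15 was named because its pattern came close to genes chosen from these counts. Its adjusted p-values are therefore not free of that choice.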

How the results depend on the processing

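All 135 alternative values of the members' cytarabine effects kept their direction. Their ranges were 3.68 to 4.35 (EV), 5.10 to 5.71 (WT) and 4.85 to 6.0 (MUT) for CEACAM1, 4.57 to 5.02, 3.95 to 4.40 and 3.69 to 4.05 for MYCT1, and 3.42 to 4.07, 3.29 to 3.59 and 3.80 to 4.45 for TJP3. The calls that placed treated WT above EV and MUT held in every alternative run for CEACAM1 (adjusted p at most 0.00144 and 0.000126) and MYCT1 (at most 0.0464 and 0.0245), as did the untreated MYCT1 call for WT against EV (at most 0.0429). Of 250 alternative values of differences between lines, 230 kept direction and side of the threshold, 9 lost the call and 11, none of them called in the main analysis, changed sign. DESeq2 gave no adjusted p for CEACAM1 in a pair of untreated comparisons. All these runs used the counts by which the genes were chosen, so they do not remove the effect of that choice. A fit of only the groups compared moved the genes differing untreated from 2125 to 5101 for WT against EV, from 3632 to 935 for MUT against EV and from 3872 to 1171 for MUT against WT, and those differing under cytarabine for MUT against WT from 3616 to 6113. It gave 0.95 (adjusted p 0.193) for untreated MYCT1 in MUT against EV. The cause was not tested.

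Leaving out 1 library at a time gave 1385 to 1432, 2253 to 4386 and 2784 to 4541 genes in the untreated comparisons, and 1776 to 2477, 1539 to 2051 and 2313 to 2866 in the treated ones (main 3013, 2548 and 3616), in the order WT against EV, MUT against EV, MUT against WT. For CEACAM1 untreated the log2 differences ran from -0.52 to 0.21, from -2.33 to -1.29 and from -2.18 to -1.15 in that order. MYCT1 ran from 0.69 to 1.14 for untreated MUT against EV and from -0.13 to 0.020 for treated MUT against EV. TJP3 ran from -0.13 to 0.52 (WT against EV) and from -0.49 to 0.17 (MUT against EV) untreated, and from -0.25 to 0.012, from -0.11 to 0.54 and from -0.0045 to 0.65 treated. The single values that changed sign were 0.020 for MYCT1 without treated EV replicate 2, -0.07, -0.13 and -0.07 for TJP3 untreated WT against EV without EV replicates 1 and 2 and WT replicate 2, 0.17 and 0.07 for TJP3 untreated MUT against EV without EV replicate 3 and MUT replicate 2, 0.012 for TJP3 treated WT against EV without WT replicate 2, -0.11 and -0.0045 for TJP3 without treated MUT replicate 1, and 0.21 and 0.06 for CEACAM1 untreated WT against EV without EV replicate 3 and WT replicate 1.

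Same-numbered replicates did not deviate together in every pair of any comparison (r from -0.26 to 0.42), and 19 of 54 samples correlated best with their own number, so they share only a number. With the replicate block no member call changed, with 8980, 8937 and 10254 genes changed by cytarabine in EV, WT and MUT, and treated CEACAM1 1.18 higher in WT than in EV. The share of called genes that were higher in untreated MUT against WT was 55.1% as reported, 65.4% with DESeq2 size factors and 65.5% in DESeq2, and in untreated WT against EV it was 36.8% as reported and 47.6% with the other groups left out of the fit. The count of genes under 1 CPM untreated and at least 5 CPM treated in every line went from 9 to 27 with the limit of 2 CPM, added after seeing the data. Of 672 alternative counts of list genes called, 49 moved by more than 1.5 times, among them the lower calls of the tight junction list (3 to 4 in WT and 2 to 5 in MUT with 1 library left out). Untreated CEACAM1 at 1 to 15 counts per library sets the precision of its comparisons.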
